A study of Mus musculus with 3 samples.

Results

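A set of 10 integrin subunit genes that serve adhesion to extracellular matrix were followed in sorted cells of the mouse molar. They are the collagen-binding alpha subunits Itga1, Itga10 and Itga11, the RGD-binding alpha subunits Itga5, Itga8 and Itgav, the beta subunits Itgb3, Itgb5 and Itgb8 that pair with the Itgav product, and Itgb1, which encodes the beta1 chain shared by the collagen, laminin and several RGD receptors. The 10 genes were a fixed list, matched by symbol and gene identifier in all 3 libraries, and all 10 were found among the 21446 genes that the libraries share, where 27 genes encode integrin subunits in all. The laminin receptor subunits Itga3, Itga6, Itga7 and Itgb4 are no members and were kept apart as a comparison.

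Cells came from mandibular molars of mice that carry a Pthrp-mCherry knock-in, in which the fluorescent protein reports the gene for parathyroid hormone-related protein, and cells positive for mCherry were sorted at 15 days (P15), 25 days (P25) and 8 weeks (P8w) after birth. The line is on a mostly C57BL/6 background, and both sexes were used. Every library carries the same reporter allele, and there is no library of negative cells. Each age is 1 library of cells pooled from several mice, so an age and its library cannot be told apart, and no test was made over age. RNA was counted as unique molecular identifiers (UMIs, 1 per captured RNA molecule) with the 10x Chromium 3' v3.1 kit, and the labels call the sorted cells cementoblasts and precursors.

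Integrins are surface receptors made of 1 alpha and 1 beta chain, which bind matrix outside the cell and couple it through talin, kindlin and other adaptors to actin inside. The alpha1, alpha10 and alpha11 chains pair with beta1 and bind collagens; alpha5, alpha8 and alphav chains bind ligands with the tripeptide arginine-glycine-aspartate (RGD), such as fibronectin, nephronectin, osteopontin and bone sialoprotein; alpha3, alpha6 and alpha7 bind laminins of basement membranes. Cementum is a mineralized layer on the tooth root into which collagen fibres of the periodontal ligament insert, and its matrix is rich in RGD proteins, so both receptor classes have ligands there. An RNA level says nothing of which chains are paired or active at the surface.

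Cells were assigned by the UMIs of 7 genes, called gates here, and levels are UMIs per 1000000 UMIs of the cells in a gate (CPM), with an exact Poisson 95% interval that covers counting error only. The Ibsp gate (bone sialoprotein, an RGD protein of mineralizing matrix) held 1564, 1974 and 1720 cells at P15, P25 and P8w, and the Ifitm5 gate (a membrane protein of mineralizing cells) held 745, 877 and 314. The Hand2 gate (a transcription factor of mesenchyme) held 179, 205 and 104 cells and the Npnt gate (nephronectin) held 1164, 167 and 47. Smaller or non-mesenchymal groups were the Rgs5 gate (a gene of pericytes and smooth muscle; 226, 22 and 52 cells), the Krt14 gate (epithelial keratin; 2061, 1038 and 137) and the Ptprc gate (CD45 of leukocytes; 688, 188 and 16, the last too few to be summed). The first gate that a cell passed counted, in the order Ptprc, Krt14, Rgs5, Ifitm5, Ibsp, Npnt and Hand2. A cell with both Ibsp and Hand2 thus stands in the Ibsp gate, and a cell with both Ifitm5 and Ibsp in the Ifitm5 gate. The Ibsp against Ifitm5 comparison therefore sets Ibsp cells under the Ifitm5 threshold against Ifitm5 cells with or without Ibsp. With no order, 2419, 2806 and 2042 cells passed the Ibsp threshold at P15, P25 and P8w.

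The gates were compared with marker lists. Each marker of the Ifitm5, Hand2 and Krt14 lists (4, 4 and 6 genes) was at least 2-fold over the other cells in each library, as was each of 8 leukocyte markers in the Ptprc gate at P15 and P25, and 3 or 4 of 4 markers in the Ibsp gate. Genes of these lists are among the markers that the authors give for clusters that include these same cells. The passes therefore describe the gates and are no independent check of them. The Ibsp list did not set its gate apart from the Ifitm5 gate, where 4, 3 and 3 of its 4 markers also passed 2-fold, with a summed level of 1324, 1083 and 1634 CPM against 783, 967 and 1436 CPM in the Ibsp gate. All 4 markers of the Hand2 list likewise passed 2-fold in the Ibsp gate at P25 and P8w, with summed levels of 3064 and 4096 CPM (0 of 4 and 660.0 CPM at P15). The Rgs5 gate met its label at P15, with 8 of 8 mural markers over 2-fold and a summed marker level of 3591 CPM; at P8w only 2 of 8 markers passed, the smooth muscle myosin Myh11 and the channel gene Kcnj8 were at 0, and Ibsp stood at 7234 CPM against 1182 CPM at P15, so the cells gated by Rgs5 at P8w are not called mural. At P25 that gate had 7 of 8 markers but also 7238 CPM of Ibsp, from 22 cells. The Npnt gate carried endothelial RNA, with 5 of 6 endothelial markers over 2-fold at P15 and 6 of 6 at the other ages, and a summed level of 121, 94.6 and 354 CPM against 47.9, 9.09 and 8.13 CPM in other cells. Ibsp stood at 62.6 and 44.6 CPM in the Ptprc gate at P15 and P25, and the levels of the Ptprc and Krt14 gates are given below as the background of genes that those cells may not make. Cells that passed either of these gates and also Ibsp, Ifitm5, Rgs5 or Hand2 had been set apart. By construction this lowers the Ibsp level left in these gates. It may lower the background of other genes of such cells as well.

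Totals were 188157997, 169712592 and 46234378 UMIs over 12926, 8971 and 5192 cells, and the median cell had 14253.5, 15834 and 8712.5 UMIs at P15, P25 and P8w. The header of the P25 file names another version of Cell Ranger than that of the other pair, its gene table is larger, and 95.2% of its UMIs fell in the shared genes, so the age P25, the version and the library cannot be told apart. Between 13 and 26 cell barcodes were shared by each pair of libraries. Cells of different gates of 1 library come from the same pool, which is why each comparison below is also given with the library as a block where that changes the call.

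Itga10 lies on chromosome 3 at 96645584 to 96664519 (plus strand, build GRCm38) and Itga11 on chromosome 9 at 62677826 to 62783982 (plus strand); Itga1 is on chromosome 13 at 114953096 to 115101964 (minus strand) and Itga8 on chromosome 2 at 12106632 to 12301922 (minus strand). All 10 members are protein coding in the GENCODE annotation. Exons of Itga1 and Itga10 overlap those of 1 same-strand gene each (Gm49395 and Gm42957), and exons of Itga8 and Itgav those of 1 gene each on the opposite strand (E030013I19Rik and Gm13684). None of these 4 genes is in the joined table, and how the counting treated such overlaps is not given in the sources used here. The 250 bases before the RefSeq start (GRCm38.p6) are shown for Itga10 and Itga11, since these collagen-binding alpha subunits had their highest levels in different gates, Ifitm5 and Hand2. Capitals mark matches, on either strand, to the RUNX core TGTGGT, the E box CANNTG or the GC box GGGCGG.
Itga10, chr3:96645334-96645583, plus strand: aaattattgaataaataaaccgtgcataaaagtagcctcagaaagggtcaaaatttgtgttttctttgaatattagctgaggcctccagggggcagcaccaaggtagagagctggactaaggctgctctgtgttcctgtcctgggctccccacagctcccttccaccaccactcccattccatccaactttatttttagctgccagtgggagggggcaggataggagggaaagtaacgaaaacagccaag
Itga11, chr9:62677605-62677854, plus strand: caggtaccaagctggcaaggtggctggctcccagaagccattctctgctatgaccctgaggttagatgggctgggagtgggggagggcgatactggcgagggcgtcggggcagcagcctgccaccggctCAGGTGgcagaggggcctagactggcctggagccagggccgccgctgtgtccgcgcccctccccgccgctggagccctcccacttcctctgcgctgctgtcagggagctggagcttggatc
The Itga10 stretch held no match to any of the 3 motifs, and the Itga11 stretch held 1 E box. Over all 32851 promoters of that length, 14.0% held the RUNX core, 66.2% an E box and 32.7% the GC box. Itgb3 had no entry, and of the 9 members with one, none held the RUNX core and 6 held an E box. A match to these letters is a description of the stretch and not a binding site.

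The share of integrin RNA held by the members was larger in the Ibsp, Ifitm5, Hand2, Npnt and Rgs5 gates and in ungated cells than in the Krt14 and Ptprc gates. Summed integrin levels of the Hand2 gate overlapped those of the Ibsp and Ifitm5 gates, and neither measure was tested. The 27 integrin genes together made up 850, 832 and 1025 CPM in the Ifitm5 gate at P15, P25 and P8w, 1145, 1114 and 1416 CPM in the Ibsp gate, and 926, 1337 and 1788 CPM in the Hand2 gate. The 10 members held 91.5% to 97.4% of these UMIs in those 3 gates, but 47.3% to 54.6% in the Krt14 gate and 33.2% and 44.8% in the Ptprc gate. Their share was 90.2% to 92.6% in the Npnt gate, 90.5% to 96.0% in the Rgs5 gate and 87.7% to 94.9% in ungated cells. The list leaves out the laminin receptor and other integrin subunits, and was chosen with earlier results of these data known. These shares therefore describe the list and are no finding about the gates. Counts from the 3' end do not scale with transcript length, but capture can differ between genes, so levels are compared below between cells for 1 gene and not between genes.

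**Figure D1:**
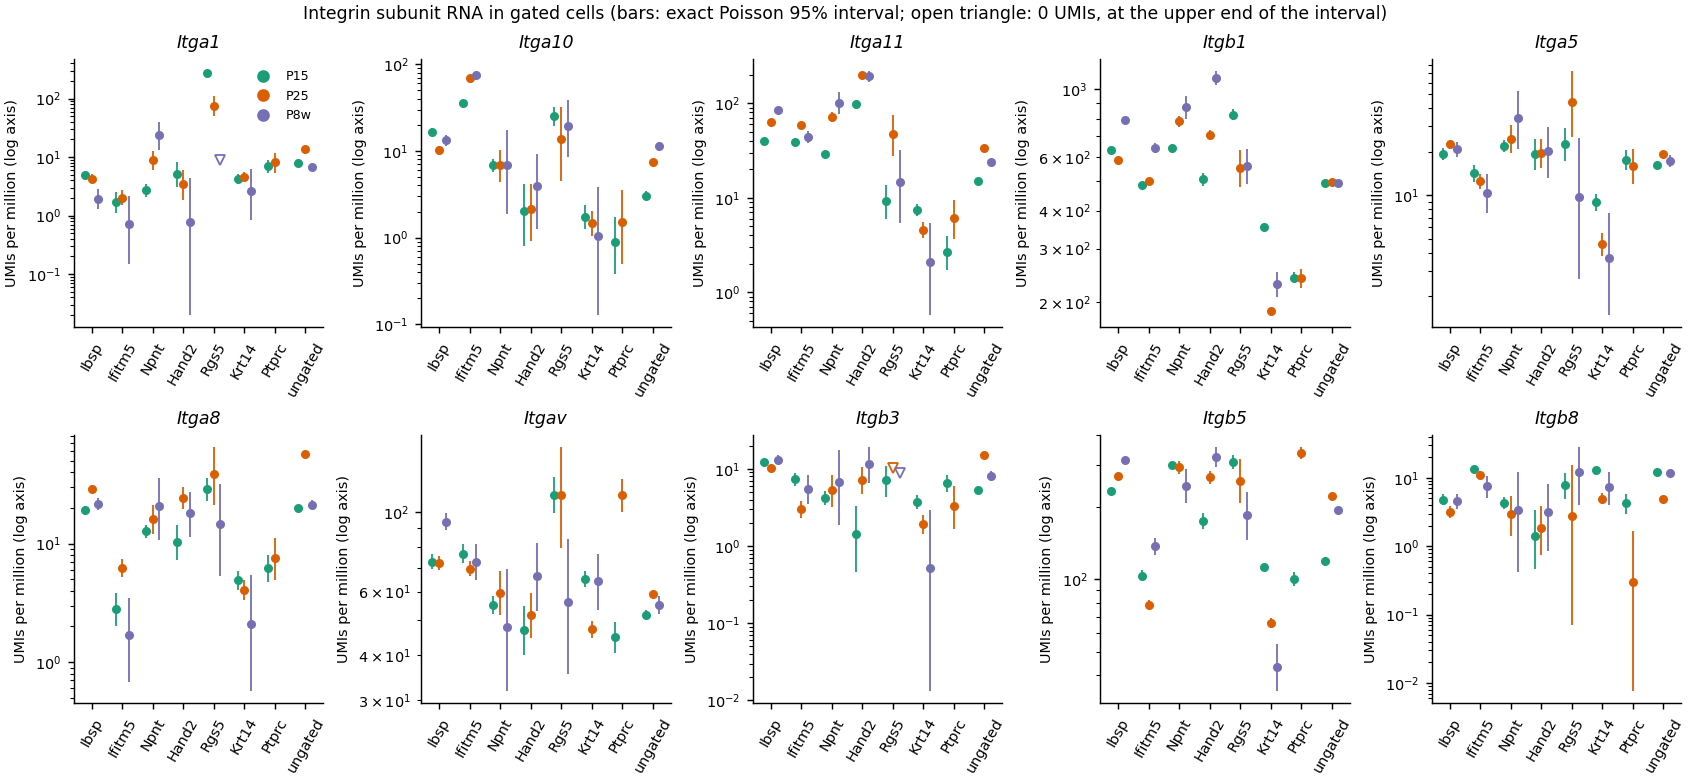
Level of each of the 10 integrin subunit genes in the 7 gates and in the ungated cells, in CPM on a log axis; each point is 1 library (P15, P25 or P8w), bars are exact Poisson 95% intervals and an open triangle stands at the upper end of the interval of a gate with 0 UMIs. Itga10 stands highest in the Ifitm5 gate in all 3 libraries, Itga11 in the Hand2 gate, and Itga1 reaches 272 CPM in the Rgs5 gate at P15 alone.

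Itga10, a collagen-binding alpha subunit best known from cartilage, had its highest level in the Ifitm5 gate in each library. From P15 to P8w its levels there were 35.8, 69.2 and 74.2 CPM, against 16.5, 10.2 and 13.3 CPM in the Ibsp gate. The Hand2 gate had 2.01, 2.13 and 3.91 CPM, from 7, 8 and 5 UMIs. The lowest Ifitm5 library was above the highest Ibsp library, and the lowest Ibsp library above the highest Hand2 library. The Krt14 gate, with 1.75, 1.46 and 1.05 CPM, and the Ptprc gate, with 0.888 and 1.52 CPM, overlapped the Hand2 gate in their intervals, so Itga10 RNA of the Hand2 gate was not distinguishable from that background at this depth. By edgeR's quasi-likelihood test on the 6 sums, Itga10 was lower in the Ibsp than in the Ifitm5 gate by a log2 fold change of -2.39 ± 0.36 (SE; adjusted p = 0.0295), and higher in the Ibsp than in the Hand2 gate by 2.48 ± 0.31 (adjusted p = 0.0118). Over 12 alternatives each, the adjusted p ranged from 1.33e-09 to 0.381 for the first, called in 8, and from 8.12e-06 to 0.175 for the second, called in 10. Without the P25 library the fold changes were -2.04 and 2.52 (edgeR adjusted p = 0.381 and 0.175), and without P8w they were -2.23 and 2.73 (adjusted p = 0.291 and 0.131). Between the Ibsp and Ifitm5 gates edgeR then called 0 genes in all, without either library. Between the Ibsp and Hand2 gates it called 3 higher and 0 lower without P25, and 0 without P8w. These fits called few or no genes, so the calls lost in them are not particular to Itga10. Between the Ibsp and Ifitm5 gates the Itga10 call was also lost without an order of gates, where edgeR called 0 genes, and with thresholds halved. With thresholds halved edgeR still called 26 genes higher and 52 lower. Over the 12 alternatives that fold change lay between -2.88 and -1.32 on the log2 scale.

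With each cell thinned to 3000 UMIs, 9.72%, 17.1% and 21.8% of Ifitm5 cells had one at P15, P25 and P8w (exact binomial 95% intervals 7.68 to 12.1, 14.6 to 19.7 and 17.3 to 26.9), after 4, 10 and 11 shallower cells were left out. Unthinned, the shares were 37.3%, 67.3% and 50.6%. In the Ptprc gate the thinned shares were 0.154% and 0% at P15 and P25 (1.16% and 1.60% unthinned), so the Ifitm5 shares stood above the leukocyte background in both libraries that have it; the median cell had 17001, 21760 and 11940 UMIs in the Ifitm5 gate and 11210 and 15340 in the Ptprc gate.

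Within the Ibsp gate, Itga10 was lower in cells with Hand2. Ibsp cells with 0 Hand2 UMIs (1491, 830 and 745 cells; those with some Hand2 RNA under the threshold were left out) had 17.3, 19.7 and 34.9 CPM of Itga10 at P15, P25 and P8w, and Ibsp cells that also passed the Hand2 threshold (49, 856 and 705 cells) had 2.15, 3.60 and 2.64 CPM (2, 47 and 20 UMIs). The ranges of the 3 libraries did not overlap, and the level with Hand2 was near that of the Hand2 gate itself. The log2 fold change of cells with Hand2 against those without was -2.93 ± 0.33 (edgeR adjusted p = 0.00542; 6.36e-10 to 0.116 over 10 alternatives, called in 8). It was -3.35 without P25 (adjusted p = 0.0917) and -2.47 without P8w (0.116). Of all genes, edgeR then called 1 higher and 0 lower without P25, and 1 higher and 4 lower without P8w. Among 10 tested members, 2 were lower with Hand2 and 0 higher, where 2.69% of all genes tested were called lower and 0.920% higher. The median cell without Hand2 had 14323, 12570.5 and 4759 UMIs and the median cell with it 16141, 13725.5 and 10064, and the part of depth in this result was not tested. Of the 4 Ifitm5 gate markers, edgeR called 3 lower with Hand2, among them Bglap, which encodes osteocalcin (-4.67 on the log2 scale), and the median over the 4 was -3.98 against 0.01 over all genes tested. Of 8 dissociation stress genes edgeR called 0 (5 with an unadjusted p under 0.05, and 4 called lower by DESeq2), with a median of -0.79. Of the 8 leukocyte markers 6 were tested, and edgeR called 1 lower with Hand2 (5 with an unadjusted p under 0.05, and 3 called lower by DESeq2). Their median was -2.55. Of 4 Schwann cell markers 3 were tested, and edgeR called 1 lower. Of all 12063 genes tested by edgeR, 2019 had an unadjusted p under 0.05, and DESeq2 called 510 of 13112 lower. The part of these lists in the Itga10 result was not tested. Thinned to 3000 UMIs, 4.97%, 5.57% and 6.35% of cells without Hand2 and 0%, 1.17% and 1.15% of cells with Hand2 had an Itga10 UMI (19.5%, 19.0% and 12.1%, and 4.08%, 5.14% and 2.70%, unthinned; 143, 76 and 288 cells without Hand2 and 0, 0 and 8 with it were left out as too shallow).

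Itgb8, whose product pairs with alphav and is known for activating latent TGF-beta, went the same way in this split, at 4.88, 5.46 and 11.1 CPM without Hand2 and 2.15, 1.61 and 1.85 CPM with it. At P15 the 2.15 CPM is the level of 2 UMIs in that sum, where 3 UMIs would be 3.22 CPM. Its interval of 0.260 to 7.75 CPM includes the 4.88 CPM without Hand2. The part of the Ifitm5 gate markers, the stress genes, the leukocyte and Schwann cell markers and the depth given above was not tested for Itgb8 either. The ranges did not overlap, and the fold change was -1.96 ± 0.41 on the log2 scale (edgeR adjusted p = 0.0415; called in 5 of 10 alternatives, 0.00574 to 0.339). It was not called when any 1 library was left out (-2.23 without P15, -2.02 without P25 and -1.57 without P8w, with edgeR adjusted p = 0.0598, 0.304 and 0.339). Of all genes, edgeR called 51 higher and 241 lower without P15, 1 and 0 without P25, and 1 and 4 without P8w. Itga11 was the reverse, with 39.2, 44.2 and 51.1 CPM without Hand2 and 58.0, 81.6 and 102 CPM with it. Its log2 fold change of 0.86 ± 0.20 missed the threshold (edgeR adjusted p = 0.0564). It passed with the library as a block (0.83, edgeR adjusted p = 0.00146) and without P15 (0.91, edgeR adjusted p = 0.0387). DESeq2 called it as well (0.87, DESeq2 adjusted p = 0.00619), and it was called in 4 of 10 alternatives.

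**Figure D2:**
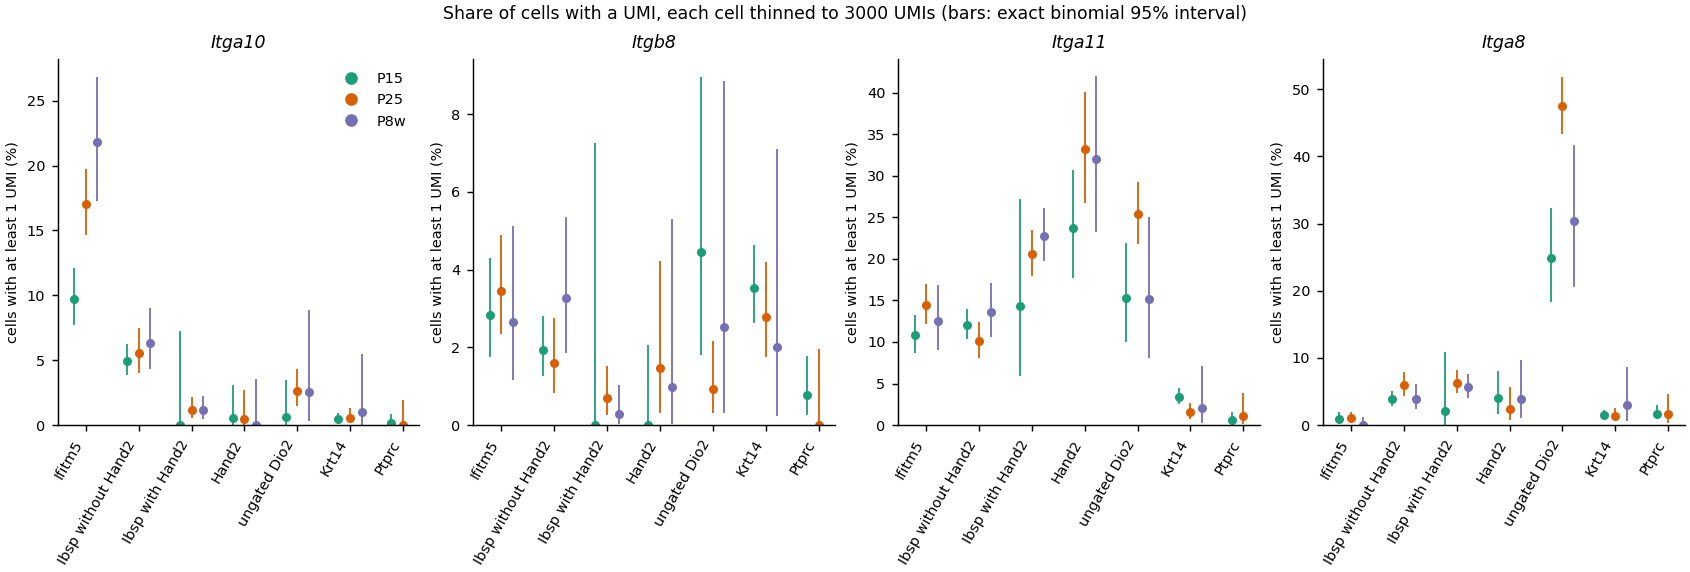
Percent of cells with at least 1 UMI of Itga10, Itgb8, Itga11 or Itga8 in 7 groups of cells, each cell thinned to 3000 UMIs; points are libraries and bars exact binomial 95% intervals. Itga10 falls from 9.72% to 21.8% in the Ifitm5 gate to 1.17% or less in Ibsp cells with Hand2, Itga11 is highest in the Hand2 gate, and Itga8 reaches 47.6% in ungated cells with Dio2.

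Itga11, the alpha subunit of a fibroblast receptor for fibrillar collagen, was read most in the Hand2 gate. That gate had the highest level in every library, at 97.2, 201 and 192 CPM from P15 to P8w, with an interval apart from that of the gate next to it. The Ibsp gate had 39.8, 62.9 and 85.3 CPM, the Ifitm5 gate had 39.1, 58.5 and 44.2, and the Npnt gate 28.8, 72.0 and 101. The Hand2 gate exceeded each of these 3 gates in all 3 libraries, though its lowest library was below the highest of the Npnt gate. Between the Ibsp and Ifitm5 gates the log2 fold change was 0.18 ± 0.33 (edgeR adjusted p = 0.839), and without 1 library it ran from -0.14 to 0.43. Against the Hand2 gate, the Ibsp gate was at -1.34 ± 0.36 on the log2 scale (edgeR adjusted p = 0.136) and the Npnt gate at -1.35 ± 0.49 (adjusted p = 0.435), neither past the threshold. With the library as a block both passed it (edgeR adjusted p = 0.00118 and 0.00346), and the first passed it also without P15 (-1.37, edgeR adjusted p = 0.0149). DESeq2 called both (DESeq2 adjusted p = 0.00525 and 0.0463), and each was called in 3 of 12 alternatives. Thinned to 3000 UMIs, 23.7%, 33.2% and 32.0% of Hand2 cells had an Itga11 UMI (59.8%, 74.6% and 66.3% unthinned), against 0.614% and 1.07% in the Ptprc gate at P15 and P25 (3.05% and 8.51% unthinned).

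Epithelial cells had little Itga11, with 7.48, 4.59 and 2.10 CPM in the Krt14 gate. That is a log2 fold change of -4.83 ± 0.45 from the Hand2 gate (edgeR adjusted p = 0.000713), which was called in each of 12 alternatives, with an adjusted p between 1.30e-27 and 0.0333 and a fold change between -5.43 and -3.76. The Rgs5 gate had 9.32, 47.3 and 14.6 CPM and a log2 fold change of -3.14 ± 0.62 from the Hand2 gate (edgeR adjusted p = 0.0660, with 0.0121 with the library as a block and 0.0431 without P15). DESeq2 called it (DESeq2 adjusted p = 2.74e-05), and it was called in 5 of 12 alternatives. The Rgs5 sums enter as replicates, though the cells at P8w are not called mural and those at P25 also had Ibsp RNA.

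Itga1, a collagen receptor subunit of vascular and stromal cells, was a gene of the Rgs5 gate at P15. There it had 272 CPM (253 to 292), and at P25 75.1 CPM (49.5 to 109) from 27 UMIs, while at P8w it had 0 of 410680 UMIs, where 3 UMIs would be 7.30 CPM. In the other gates it lay between 0.725 CPM (Ifitm5 gate, P8w) and 24.0 CPM (Npnt gate, P8w, from 14 UMIs). The fall over the 3 libraries went with the mural markers of the gate, whose summed level was 3591, 979 and 492 CPM and of which 8, 7 and 2 of 8 passed 2-fold, so the P8w value describes cells without that identity. Thinned to 3000 UMIs, 47.7% of Rgs5 cells had an Itga1 UMI at P15 (74.3% unthinned), against 2.92% in the Ptprc gate of that library (5.38% unthinned). The difference from the Hand2 gate, with 5.16, 3.45 and 0.781 CPM, was 5.005 ± 1.34 on the log2 scale and was not called (edgeR adjusted p = 0.164), but passed with the library as a block (4.91; adjusted p = 0.0177). In that comparison 1 of 9 tested members was called higher and 0 lower, where 1.11% and 0.432% of all genes tested were. The called member was Itga10, with 24.99, 13.9 and 19.5 CPM in the Rgs5 gate (67, 5 and 8 UMIs) and a log2 fold change of 2.96 ± 0.41 (edgeR adjusted p = 0.0181; 0.0966 without P15, 0.171 without P25 and 0.0692 without P8w). Dmp1, a mineralization gene of the Ibsp marker list, was called higher there as well (log2 fold change of 4.18), while no test is given for Ibsp, since cells over its threshold could not enter the Hand2 gate. Of the 8 dissociation stress genes edgeR called 0 (5 with an unadjusted p under 0.05, and 4 called higher by DESeq2), with a median log2 fold change of 1.47 against -0.01 over all genes tested. The part of these genes in the Itga10 result was not tested.

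Itgb1, the partner of all 3 collagen-binding alpha subunits and of Itga5 and Itga8, was present throughout. The level was 631, 586 and 795 CPM in the Ibsp gate, 483, 501 and 639.6 in the Ifitm5 gate, 642, 783 and 873 in the Npnt gate, and 506, 707 and 1085 in the Hand2 gate. These ranges overlap, and no test between these gates called it; the Ibsp gate differed from the Ifitm5 gate by 0.11 ± 0.18 and from the Hand2 gate by -0.15 ± 0.26 on the log2 scale (edgeR adjusted p = 0.813 and 0.880). The Krt14 gate was lower, with 353, 187 and 229 CPM and a log2 fold change of -1.44 ± 0.32 from the Hand2 gate (edgeR adjusted p = 0.0130, with 0.151 without P25 and 0.122 without P8w). The Ptprc gate had 241 and 240 CPM of Itgb1 at P15 and P25.

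Among the RGD-binding alpha subunits, Itga8, the subunit of the nephronectin receptor, was low in the Ifitm5 gate. It had 2.82, 6.22 and 1.69 CPM there (40, 141 and 7 UMIs), against 19.1, 29.0 and 21.6 CPM in the Ibsp gate and 10.3, 24.2 and 18.0 CPM in the Hand2 gate. The highest Ifitm5 library was below the lowest library of either. In the Ptprc gate Itga8 had 6.22 and 7.58 CPM at P15 and P25, and in the Krt14 gate 4.88, 4.05 and 2.10 CPM, so the Ifitm5 level was in the range of cells that served as background. The log2 fold change from the Ifitm5 to the Ibsp gate was 2.34 ± 0.49, and missed the threshold (edgeR adjusted p = 0.0632). It passed with the library as a block (2.45; adjusted p = 0.0139), and DESeq2 called it as well (2.39; DESeq2 adjusted p = 2.97e-05). Over 12 alternatives the adjusted p lay between 2.97e-05 and 0.334. Thinned shares of cells with a UMI were 0.945%, 1.04% and 0% in the Ifitm5 gate (4.30%, 4.90% and 0.318% unthinned). The last was 0 of 303 cells at P8w, where 3 cells would be 0.990%. Against the Hand2 gate, the Krt14 gate was lower by a log2 fold change of -2.01 ± 0.42 (edgeR adjusted p = 0.0105; 0.138 without P25 and 0.0832 without P8w).

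Itga8 levels of the Npnt and Hand2 gates overlapped. The Npnt gate, with 275, 220 and 229 CPM of Npnt, had 12.7, 16.1 and 20.5 CPM of Itga8, and the Hand2 gate, with 23.2, 18.1 and 10.9 CPM of Npnt, had the 10.3, 24.2 and 18.0 CPM above, a log2 difference of -0.17 ± 0.35 (edgeR adjusted p = 0.9997). Over these 2 gates 0 of 10 members were called, 0 higher and 0 lower, where edgeR called 0.587% of all genes tested higher and 0.0993% lower. Itga10 and Itga11 were the 2 members with an unadjusted p under 0.05 by edgeR, as were 1014 of all 11077 genes tested. DESeq2 called 1 member, Itga11, lower, where it called 228 genes higher and 53 lower of 12375. The endothelial markers of the Npnt gate stand beside this comparison, and their part in it was not tested.

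Itga5, the alpha subunit of the fibronectin receptor, was called in none of the comparisons among mesenchymal gates. It had 19.4, 22.5 and 20.9 CPM in the Ibsp gate, 19.2, 19.7 and 20.3 in the Hand2 gate and 14.2, 12.5 and 10.4 in the Ifitm5 gate. The Ifitm5 gate was the lowest of these in each library, and the difference of 0.56 ± 0.16 (log2, Ibsp over Ifitm5) missed the threshold (edgeR adjusted p = 0.133). The Ptprc gate had 17.5 and 16.1 CPM of Itga5 at P15 and P25, above the Ifitm5 gate. The Krt14 gate had 8.99, 4.59 and 3.68 CPM, lower than the Hand2 gate by a log2 fold change of -1.58 ± 0.32 (edgeR adjusted p = 0.0101; 0.148 without P25 and 0.0777 without P8w).

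Itgav, which encodes the alpha chain of the vitronectin receptors, was present in every gate. Its levels were 72.6, 72.1 and 93.8 CPM in the Ibsp gate, 76.4, 69.5 and 72.5 in the Ifitm5 gate, 47.0, 51.6 and 66.4 in the Hand2 gate and 65.1, 47.2 and 64.1 in the Krt14 gate. No comparison called it, with a log2 difference between the Krt14 and Hand2 gates of 0.24 ± 0.19 (edgeR adjusted p = 0.354). The Ibsp gate stood 0.59 ± 0.16 above the Hand2 gate (log2; edgeR adjusted p = 0.136), a difference that passed only with the library as a block (0.58; adjusted p = 0.0150) among 12 alternatives. In the Ptprc gate Itgav was 44.8 and 111 CPM.

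Of the beta partners of alphav, Itgb5 and Itgb8 were called between the Ibsp and Ifitm5 gates, in opposite directions. Itgb5 had 233, 271 and 316 CPM in the Ibsp gate and 104, 78.0 and 138 CPM in the Ifitm5 gate, without overlap, and the Ibsp gate was higher by 1.18 ± 0.21 on the log2 scale (edgeR adjusted p = 0.0387; called in 6 of 12 alternatives, 8.68e-06 to 0.437). The call was lost when any 1 library was left out, at 1.22 without P15, 1.02 without P25 and 1.31 without P8w (edgeR adjusted p = 0.0512, 0.437 and 0.157). Without P25 or P8w edgeR called 0 genes in all between these gates, so those fits say nothing of Itgb5 in particular. Without P15 it called 272 genes higher and 342 lower. The Hand2 gate, with 175, 268 and 324 CPM, and the Npnt gate, with 301, 294 and 246, overlapped the range of the Ibsp gate. The Ptprc gate had 101 and 337 CPM of Itgb5 at P15 and P25, the highest level of any gate at P25. In the Krt14 gate it was 112, 65.7 and 43.1 CPM, a log2 fold change of -1.65 ± 0.36 from the Hand2 gate (edgeR adjusted p = 0.0134; 0.158 without P25 and 0.0905 without P8w).

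For Itgb8, the Ifitm5 gate had 13.6, 10.98 and 7.49 CPM and the Ibsp gate 4.82, 3.22 and 4.54, a log2 fold change of -1.57 ± 0.25 (edgeR adjusted p = 0.0315; called in 6 of 12 alternatives, 1.92e-05 to 0.399). Leaving out P15, P25 or P8w gave -1.58, -1.33 and -1.79, none of them called (edgeR adjusted p = 0.0590, 0.399 and 0.173). Without P25 or P8w edgeR called 0 genes in all in this comparison. The Ptprc gate had 4.22 and 0.303 CPM of Itgb8 at P15 and P25. Of the members tested, Itgb8 alone was called higher in epithelium, with 13.01, 4.97 and 7.36 CPM in the Krt14 gate and 1.43, 1.86 and 3.12 CPM in the Hand2 gate (5, 7 and 4 UMIs), which gave 2.22 ± 0.49 (log2; edgeR adjusted p = 0.0135, and 0.0485 to 0.0872 when 1 library was left out, called without P15 alone).

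Itgb3, the beta chain of the classic osteopontin and bone sialoprotein receptor of osteoclasts, was low in all gates. It had 12.4, 10.4 and 13.1 CPM in the Ibsp gate and 7.33, 2.998 and 5.56 CPM in the Ifitm5 gate, without overlap, a difference of 1.03 ± 0.26 that missed the threshold (log2; edgeR adjusted p = 0.0945) and passed with the library as a block (1.07; adjusted p = 0.0397). In the Hand2 gate it had 1.43, 7.17 and 11.7 CPM, from 5, 27 and 15 UMIs, a span that reached into both other gates. The Ptprc gate had 6.55 and 3.34 CPM of Itgb3 at P15 and P25, near the levels of the Ifitm5 gate.

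Counted over the comparisons, the Ibsp and Ifitm5 gates differed in 3 of 10 members, 1 higher in Ibsp (Itgb5) and 2 lower (Itga10 and Itgb8), where 1.03% of all genes tested were called higher and 1.50% lower. Scaling to total UMIs in place of TMM, edgeR's scaling by trimmed means, moved the median of all genes in this comparison from 0.01 to 0.19 on the log2 scale. The Ibsp and Hand2 gates differed in 1 of 10 (Itga10, higher), where 1.30% of genes were called higher and 1.03% lower. The Krt14 and Hand2 gates differed in 6 of 9 members tested, 1 higher and 5 lower, where 15.9% and 17.3% of all genes tested were called. Itga10 had too few UMIs for the filter of that comparison and Itgb8 too few for that of the Rgs5 and Hand2 gates. Of the comparisons, 4 share the Hand2 sums, so they are not independent of each other.

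**Figure D3:**
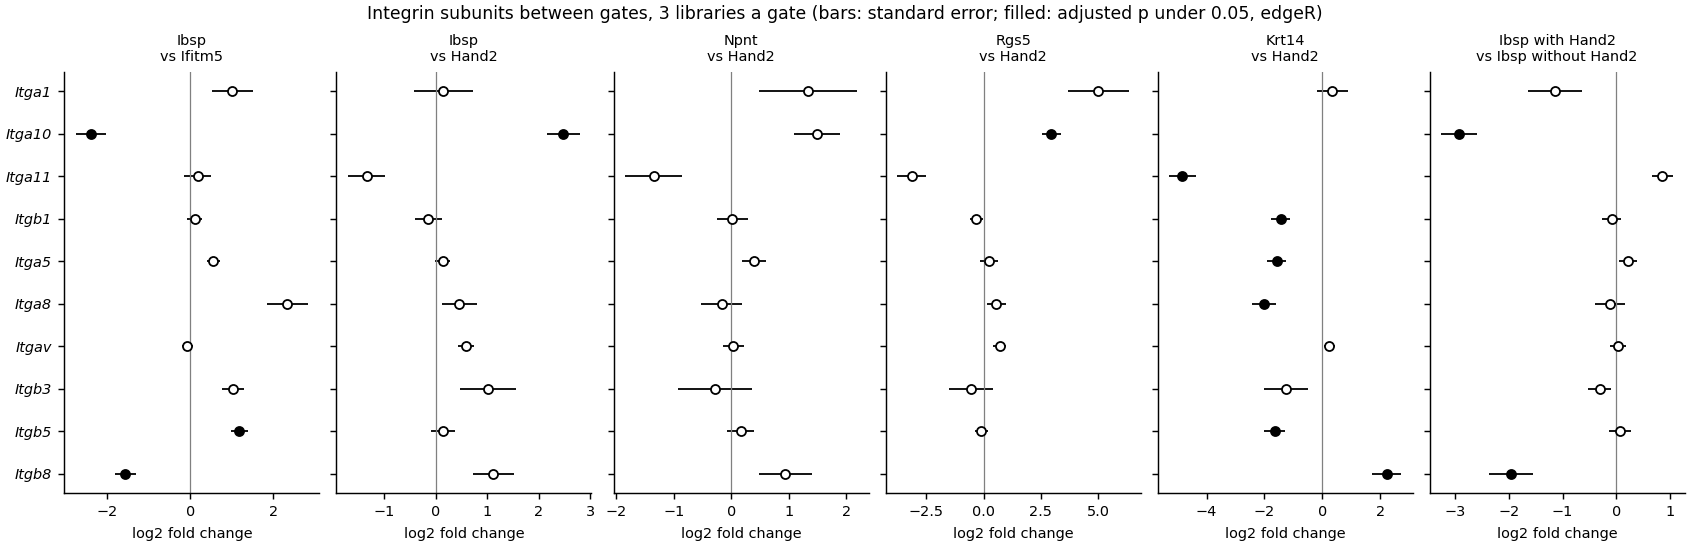
Log2 fold change of the members in the 6 comparisons, on axes of different width. Each point rests on 3 libraries per gate, and filled points have an adjusted p under 0.05. Bars are standard errors, computed as the size of the log2 fold change over the square root of edgeR's F statistic. Itga10 is filled in 4 panels (-2.39, 2.48, 2.96 and -2.93), and Itga11 lies at -4.83 between the Krt14 and Hand2 gates.

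Laminin receptor subunits had a separate distribution. Itga6 had 278, 201 and 164 CPM in the Krt14 gate and at most 7.19 CPM in the Ibsp, Ifitm5 and Hand2 gates, and Itgb4, its partner in hemidesmosomes, had 137, 109.9 and 97.8 CPM against at most 4.88. Of the 4 laminin receptor subunits 3 were tested and 3 were called higher in the Krt14 than in the Hand2 gate (Itga6 6.26, Itgb4 5.41 and Itga3 3.84 on the log2 scale), with a median of 5.41 beside 0.05 over all genes. In the same comparison the tested RGD-binding alpha members had a median of -1.58, with 2 of 3 called lower. Of all genes tested there, 15.9% were called higher and 17.3% lower. Itga7, a laminin receptor subunit of muscle, did not pass the low-count filter of that comparison and reached 61.5 CPM in the Rgs5 gate at P15. Between the Rgs5 and Hand2 gates the filter left 0 of the 4 subunits for edgeR. DESeq2 called 1 of them higher in the Rgs5 gate, where it called 318 higher and 138 lower of 11975 genes. Of the other comparisons, Itga6 was called higher in the Npnt than in the Hand2 gate (3.28 ± 0.49 on the log2 scale; edgeR adjusted p = 0.0325), where it had 17.9, 39.0 and 34.2 CPM beside the endothelial markers given above.

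Genes for the ligands differed between the same gates. Of 13 genes for RGD ligands 11 were tested between the Ibsp and Ifitm5 gates, and 1 was called higher in the Ibsp gate (Edil3, 2.44 on the log2 scale) and 2 lower (Dmp1, a mineralization matrix protein that also served as an Ibsp gate marker, -2.59, and Spp1, which encodes osteopontin, -2.14). Of all genes tested there, 1.03% were called higher and 1.50% lower. Spp1 had 3342, 4511 and 8031 CPM in the Ifitm5 gate and 1038, 1446 and 1670 CPM in the Ibsp gate. Of 5 fibrillar collagen genes edgeR called 1, Col3a1, higher in the Ibsp gate by 1.68 on the log2 scale, while DESeq2 called 1 higher and 2 lower, and the median over the 5 was -0.47 against 0.01 over all genes tested. Within the Ibsp gate, cells with Hand2 had less RNA of 2 of 11 tested RGD ligands, Fn1 (-2.18) and Tnc (-1.32), and of 2 of 5 fibrillar collagens, Col1a1 (-1.07) and Col1a2 (-0.97). In that split 2.69% of all genes tested were called lower with Hand2 and 0.920% higher. Of 19 integrin adaptor genes, edgeR called 0 of 17 tested between the Ibsp and Ifitm5 gates (5 with an unadjusted p under 0.05, and 1 called by DESeq2) and 0 of 16 between the Ibsp and Hand2 gates (2 with an unadjusted p under 0.05, both called by DESeq2), while 2 were higher and 8 lower in the Krt14 than in the Hand2 gate (17 tested). Of all genes tested, 1.30% were called higher and 1.03% lower in the Ibsp than in the Hand2 gate. In the Krt14 against the Hand2 gate these shares were 15.9% and 17.3%. Fermt2, a kindlin of focal adhesions, was the lowest adaptor of that comparison at -3.29 on the log2 scale, and Fermt1, the epithelial kindlin, had 53.8, 42.0 and 52.6 CPM in the Krt14 gate and 0 UMIs in the Hand2 gate.

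The largest group of cells passed no gate (5878, 4355 and 2766 cells), and those among them with Dio2 RNA had more Itga8 and Itgb3 than any gate in each library. Itga8 had 20.1, 56.8 and 21.2 CPM over all ungated cells, which also carried erythroid RNA (3 of 3 markers over 2-fold, 7563, 5480 and 1117 CPM in sum). A split of these cells by Dio2 (a deiodinase) and Pecam1 (endothelial) was chosen after values had been seen, so what follows is a description with no test. Ungated cells with Dio2 (160, 539 and 80 cells) had 114, 259 and 152 CPM of Itga8, 85.6, 68.8 and 33.0 CPM of Itgb3, 60.4, 42.3 and 58.6 CPM of Itga1 and 353, 525 and 487 CPM of Itgb5. They held 2619 of the 3910 Itga8 UMIs of ungated cells at P25. All 27 integrin genes summed to 1690, 2099 and 1892 CPM in these cells, above each gate at P25 and P8w and below the 1787 CPM of the Rgs5 gate at P15. With thinning to 3000 UMIs, 24.8%, 47.6% and 30.4% of them had an Itga8 UMI (56.9%, 85.3% and 57.5% unthinned), against 1.69% and 1.60% in the Ptprc gate (5.96% and 5.85% unthinned). Itga10 was 4.41, 5.74 and 10.7 CPM in these cells, and Itga11 54.3, 108 and 62.9 CPM.

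At P15, ungated cells with Pecam1 (114 cells) had 109.7 CPM of Itga5 (91.6 to 130.5), more than any gate of that library, and 30.9 CPM of Itgb5. The other ages had too few such cells to be summed (3 and 4).

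Over age, most members with at least 10 CPM at P15 or P8w moved by less than 2-fold between these ages within a gate. In the Ibsp gate, 1 of 8 members with at least 10 CPM passed 2-fold, where 5.61% of all genes at that level did. That was Itga11, whose levels of 39.8, 62.9 and 85.3 CPM gave a ratio of P8w to P15 of 2.14 (1.97 to 2.34, counting error only). The makeup of the gate also differed between the libraries: Ibsp cells with Hand2 numbered 49 of 1564, 856 of 1974 and 705 of 1720 cells in the 3 libraries. Among Ibsp cells with Hand2, Itga11 was 58.0 and 102 CPM at P15 and P8w, and among those without it 39.2 and 51.1 CPM, and the part of this makeup in the ratio was not tested.

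The Ifitm5 gate also had 1 of 7 measured members past 2-fold, where 6.65% of genes were. It was Itga10, which went from 35.8 to 74.2 CPM (ratio 2.08, 1.80 to 2.40), and had reached 69.2 CPM at P25. Its ratio in the Ibsp gate was 0.804 (0.673 to 0.959). Within that gate, Itga10 had 17.3 and 34.9 CPM at P15 and P8w in cells without Hand2. Cells with Hand2 had 2.15 and 2.64 CPM (2 and 20 UMIs), and numbered 49 of 1564 and 705 of 1720 cells. The part of this makeup in the Itga10 ratio was not tested. In the Hand2 gate 2 of 7 members were past 2-fold, where 11.2% of genes were: Itgb1, from 506 to 1085 CPM (2.14, 1.997 to 2.30), and Itgb3, from 1.43 to 11.7 CPM (8.17, 2.82 to 28.7, on 5 and 15 UMIs). Itga11 in that gate had a ratio of 1.98 (1.67 to 2.34), just under the line, and Itgb5 of 1.85.

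The Npnt gate had 2 of 7 past 2-fold, Itga11 (3.51, 2.64 to 4.59) and Itga1 (8.89, 4.58 to 16.1), where 14.5% of genes were past it, while its endothelial markers went from 121 to 354 CPM. In the Krt14 gate 1 of 4 was past it, where 18.7% of genes were: Itgb5, from 112 to 43.1 CPM (0.384, 0.304 to 0.478). Each ratio compares 1 library with 1 other, whose median cell had 14253.5 and 8712.5 UMIs, and has no replicate check.

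**Figure D4:**
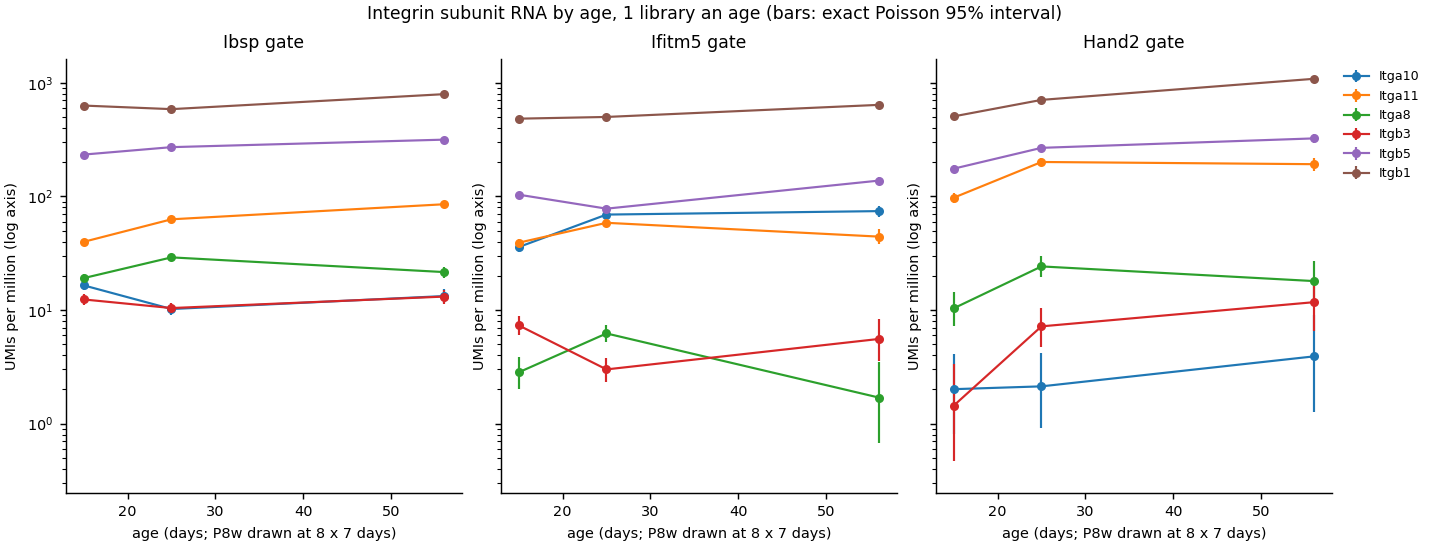
Level of 6 members against age in the Ibsp, Ifitm5 and Hand2 gates, in CPM on a log axis; each point is the 1 library of that age and bars are exact Poisson 95% intervals. Itga11 goes from 39.8 to 85.3 CPM in the Ibsp gate, Itga10 from 35.8 to 74.2 CPM in the Ifitm5 gate, and Itgb1 from 506 to 1085 CPM in the Hand2 gate.

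The genes most like each member were sought over 23 sums of a gate and a library, by Pearson's r of log2(CPM + 10) over 9889 genes; sums of 1 library share its depth and cells, and no p is given. Itga10 was nearest to Rom1 (r = 0.93), Mamdc2 (0.93) and Dmp1 (0.92), the last a gene of mineralizing cells. Itga11 was nearest to Sytl2, Lrrc15 and Prss35 (0.94 each), Itga1 to Pear1 (0.95), Adra2a (0.95) and Pygm (0.94), and Itga8 to Col6a3 (0.86), a microfibrillar collagen gene, Spsb1 (0.85) and Mmp11 (0.84). Itgb1 was nearest to Mmp14, Tgfb1i1 (0.95 each) and Cald1 (0.94). Itgb5 was nearest to Klf7 (0.88), Itga5 to Zfp740 (0.90), Itgb8 to Eci1 (0.84), Itgb3 to Sfxn3 (0.83) and Itgav to Mllt6 (0.83). No member was among the 3 nearest genes of another.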

How the data were processed

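Per the file headers and the deposited values, the authors' files hold raw UMI counts per gene and cell from Cell Ranger, without normalization (submitters' processing notes: mm10, Cell Ranger 6.1.2 for all libraries; header of the P25 file: 6.0.1). Filters on cells are not given in the sources used here, and all deposited cells were kept; no doublet caller was run, and cells that passed leukocyte and epithelial gates, or either with Ibsp, Ifitm5, Rgs5 or Hand2, were set apart (421, 145 and 36 cells).

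Libraries were joined by gene identifier. A cell passed a gate with at least 2 UMIs of the gene and at least 1 per 10000 of its UMIs (5 per 10000 for Krt14, Rgs5 and Ibsp). Counts were summed per gate and library with at least 20 cells and compared with edgeR 4.0.16 (TMM, low-count filter, robust quasi-likelihood test, Benjamini-Hochberg over all genes, called at an adjusted p under 0.05) in R 4.3.3, with the 3 libraries of different age as replicates; each is 1 pool, so p-values measure the spread between ages and libraries. Both edgeR and DESeq2 1.42.0, an alternative, were run on simulated counts with a single dispersion and no library effect. That run cannot show how the fit without a block behaves on gates that share a library. Deviations from the gate means correlated between gates of the same library by 0.062 to 0.66, gates of a library come from the same pool, and a fit with the library as block was made as an alternative. Standard errors after ± were computed from edgeR's test, as the size of the log2 fold change over the square root of its F statistic. Ratios over age used CPM, with 2-fold as the limit among genes of at least 10 CPM. Shares used cells thinned to 3000 UMIs. Other alternatives changed the gate thresholds, the order of gates, filters and scaling, or left out 1 library.

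The members and the gene lists were chosen with earlier results of these data known. Named were all members and gate genes, the extremes of each list, and the 3 genes most like each member among genes of at least 20 CPM in a sum. A further group of ungated cells is not reported here. Positions are from GENCODE M21 (GRCm38). Intervals and limits from 3 UMIs cover counting error only.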

Additional observations from a re-analysis of the deposited data

Results flagged for a closer look

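The ratio of P8w to P15 lay on opposite sides of 1, with counting intervals apart from 1, in 2 gates for 6 members, and the differences between gates were not tested, as each age is 1 library. The limit of 10 CPM was not applied to each gate here. Itgb3 and Itga11 in the Krt14 gate and Itga1 in the Hand2 gate were under it at both ages. Itgb5 had a ratio of 0.384 in the Krt14 gate and 1.85 in the Hand2 gate. The ratio of Itgb1 was 0.649 in the Krt14 gate and 2.14 in the Hand2 gate. For Itgb3 it was 0.139 in the Krt14 gate, from 1 UMI at P8w, and 8.17 in the Hand2 gate. Itga11 had 0.281 in the Krt14 gate, from 4 UMIs at P8w, and 3.51 in the Npnt gate. For Itga10 the values were 0.804 in the Ibsp gate and 2.08 in the Ifitm5 gate. Within the Ibsp gate, Itga10 had 17.3 and 34.9 CPM at P15 and P8w in cells without Hand2. Cells with Hand2 had 2.15 and 2.64 CPM (2 and 20 UMIs), and their share of the gate also differed between these libraries. Itga1 had 0.151 in the Hand2 gate, from 1 UMI at P8w, and 8.89 in the Npnt gate, whose endothelial markers summed to 121 and 354 CPM.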

How the results depend on the processing

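The direction of each called member held under all alternatives that were run, while its call often did not. Of the values of members between gates, 566 kept direction and side of the threshold, 26 passed it newly, 41 no longer passed and 37 changed sign; the last had adjusted p-values of at least 0.718 and log2 fold changes of at most 0.2962 in size. The cause of each change was not tested, apart from what follows from construction: gates without order share cells, and leaving out a library leaves 2 sums a gate. All-gene counts of calls moved by over 1.5 times in 35 of 70 settings; between the Ibsp and Ifitm5 gates edgeR called 319 genes (0 to 1106 over the alternatives, 1059 by DESeq2), between the Ibsp and Hand2 gates 280 (0 to 858), Npnt and Hand2 76 (0 to 545), Rgs5 and Hand2 157 (1 to 672), Krt14 and Hand2 3729 (537 to 5166), and within the Ibsp gate 435 (1 to 1713).

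The number of members called between the Ibsp and Ifitm5 gates was 3, against 0 with thresholds halved, 0 with gates without order, 5 by DESeq2, 5 with the library as a block and 0 to 1 when 1 library was left out. All-gene calls there were 130 higher and 189 lower of 12621, against 26 and 52 of 12903 with thresholds halved and 0 of 12891 without order. They were 482 and 577 by DESeq2, 552 and 554 with the block, 272 and 342 without P15, and 0 without P25 or P8w. Between the Ibsp and Hand2 gates the number of members was 1, against 2 by DESeq2, 3 with the library block and 0 to 2 without 1 library. All-gene calls there were 156 higher and 124 lower, against 369 and 365 by DESeq2 and 448 and 410 with the block. They were 151 and 131 without P15, 3 and 0 without P25, and 0 without P8w. Between the Npnt and Hand2 gates the number of members was 0, against 1 with thresholds doubled, 1 by DESeq2 and 1 with the block. All-gene calls there were 65 higher and 11 lower, against 175 and 32, 228 and 53, and 357 and 188 in these settings. Between the Rgs5 and Hand2 gates the number of members was 1, against 3 with thresholds doubled, 2 by DESeq2, 3 with the block, 3 with all gates in one fit and 0 to 1 without 1 library. All-gene calls there were 113 higher and 44 lower, against 491 and 181, 318 and 138, 147 and 72, and 336 and 167 in the first 4 settings. They were 100 and 38 without P15, 0 and 1 without P25, and 17 and 0 without P8w. Between the Krt14 and Hand2 gates the number of members was 6, against 3 with thresholds halved and 1 to 7 without 1 library (1 without P25, 1 without P8w). All-gene calls there were 1788 higher and 1941 lower, against 1384 and 1561 with thresholds halved. They were 2297 and 2550 without P15, 325 and 212 without P25, and 622 and 690 without P8w. In the Ibsp gate, with against without Hand2, the number of members was 2, against 1 with thresholds doubled, 1 with thresholds halved and 0 to 2 without 1 library. All-gene calls there were 111 higher and 324 lower, against 158 and 405 with thresholds doubled and 52 and 129 with thresholds halved. They were 51 and 241 without P15, 1 and 0 without P25, and 1 and 4 without P8w. Over age, members past 2-fold were 0 in place of 1 in the Ifitm5 gate with thresholds doubled, 1 in place of 2 in the Hand2 gate without order, and 3 (thresholds halved) or 2 (cells under 500 genes or over 20% mitochondrial UMIs left out) in place of 1 in the Krt14 gate. Of all genes, 7.51% were past 2-fold in that Ifitm5 setting (6.65% in the main one) and 9.77% in that Hand2 setting (11.2%). In the Krt14 gate 19.4% and 18.8% were past it in these settings (18.7% in the main one). The Npnt gate with doubled thresholds had fewer than 20 cells at P8w, and its ratio over age was not run.

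Sign changes of log2 fold changes, none of a called member, were as follows. Between the Ibsp and Hand2 gates, Itga1 was -0.147 and Itgb1 0.0324 with thresholds halved, Itga5 -0.0045 with thresholds doubled, and Itga5 -0.1799, Itga8 -0.0832, Itgb5 -0.17 and Itgb1 0.0209 without order. Between the Npnt and Hand2 gates, Itga5 was -0.1333, Itgav -0.0145 and Itgb5 -0.1806 without order, Itgb1 -0.0456 with thresholds doubled and Itgb3 0.1596 with the block. Between the Rgs5 and Hand2 gates, Itga5 was -0.1089, Itgb3 0.2962 and Itgb5 0.1495 with thresholds doubled and Itgb5 0.0424 with thresholds halved. Between the Krt14 and Hand2 gates, Itga1 was -0.0446 with thresholds halved and Itgav -0.1106 without order, and Itga8 was 0.2465 in the Ibsp split with thresholds doubled. When 1 library was left out, the ranges that spanned 0 were Itga11 -0.1371 to 0.4263 and Itgav -0.1922 to 0.0059 between the Ibsp and Ifitm5 gates, Itgb1 -0.3216 to 0.0550 between the Ibsp and Hand2 gates, Itga8 -0.2678 to 0.1720, Itgav -0.0852 to 0.2350, Itgb3 -0.5912 to 0.1304, Itgb5 -0.0817 to 0.4426 and Itgb1 -0.0780 to 0.2527 between the Npnt and Hand2 gates, Itga5 -0.1890 to 0.5039, Itgb3 -0.1748 to 0.1241, Itgb5 -0.4488 to 0.2148 and Itgb1 -0.7159 to 0.0334 between the Rgs5 and Hand2 gates, and Itga8 -0.3082 to 0.2422, Itgav -0.0415 to 0.0772, Itgb5 -0.0090 to 0.1805 and Itgb1 -0.2325 to 0.0259 in the Ibsp split.

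Shares of cells with a UMI depended on the depth cells were thinned to, with 33 of 36 moved past their interval at 1500 UMIs or without thinning. Depth limits Itga10 and Itgb8 in the Hand2 gate, which rest on 8 UMIs or fewer per library, and every member of the Rgs5 gate at P25 and P8w, with 22 and 52 cells. It also limits Itga10 and Itgb8 in Ibsp cells with Hand2 at P15, with 2 UMIs each.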
